A study of Mus musculus with 6 samples.

Results

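Expression of the erythropoietin (EPO) receptor gene Epor and of 8 JAK-STAT pathway genes was measured in single cells of hippocampal CA1. CA1 is the field that sends out much of the hippocampal output. The set holds 9 of the 20234 genes in the table of unique molecular identifiers (UMIs): Epor, Jak1, Jak2, Stat3, Stat5a, Stat5b, Socs2, Bcl2l1 and Pim1. They were chosen by pathway membership, and all 9 had a row. The questions were which cell classes hold the receptor and which hold the other pathway genes, and what these counts could not detect. A further question was whether the levels differed between EPO and placebo mice.

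The cells came from 6 male C57Bl6 mice aged 28 days (P28), 3 given 1 injection of recombinant human EPO at 5000 IU/kg and 3 given placebo, and the tissue was taken 6 h later. CA1 was cut from sections, digested with papain and run on Drop-seq, which captures single cells in droplets and counts RNA 3′ ends with UMIs. The study describes these mice as wild type, and no transgene or deletion is named for them. Each mouse contributed 1000 barcodes, of which 1632 in all were retained as cells, 684 from placebo and 948 from EPO mice, the filter being over 500 and up to 8000 detected genes and a mitochondrial share of 40% or less.

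EPO binds a cell-surface receptor that has no enzyme activity of its own. The receptor carries the kinase JAK2, which phosphorylates STAT transcription factors, chiefly STAT5. The STATs then switch on genes such as the feedback inhibitors of the SOCS family, the survival gene Bcl2l1 and the kinase gene Pim1, and in red cell precursors this chain keeps the cells alive. Since JAK and STAT proteins are regulated by phosphorylation, their RNA level is not a readout of their activity. In brain, the same kinases and STATs also serve receptors for interleukin-6 type cytokines, interferons and growth hormone.

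Retained cells held 267231 to 2150763 UMIs per mouse, with placebo mouse 3 the shallowest, and their median mitochondrial share was between 4.61% and 19.0% by mouse. The CA1 pyramidal cell genes Wfs1, Fibcd1 and Spink8 were counted in all 6 mice, with 21 to 347 UMIs each. A set of 41 barcode sequences was retained both in placebo mouse 1 and in EPO mouse 4. In all 41 pairs EPO mouse 4 held fewer UMIs, by a median ratio of 4.03, and the expression profiles of a pair correlated at a median r of 0.725 against 0.358 for different barcodes of the same cells. These barcodes carried 48.1% of the UMIs of placebo mouse 1 and 7.16% of those of EPO mouse 4, so the fitted comparisons of cell classes and of treatments were also run without them. Levels of a class in single mice, and exact tests within or between classes, include them. The labels also carry a D number whose meaning is not stated. It was 1 for placebo mice 1 and 3 and EPO mouse 2, and 2 for placebo mouse 5 and EPO mice 4 and 6.

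Cells were clustered with the 9 genes and their pathway lists left out of the clustering genes, and the clusters were named from standard markers. The glutamatergic-like class held 845 cells in 5 clusters. There were 231 astrocyte-like, 163 oligodendrocyte-like, 98 microglia-like, 91 endothelial-like, 82 GABAergic-like, 70 oligodendrocyte precursor-like and 52 mural-like cells, mural cells being the pericytes and smooth muscle cells that wrap brain vessels. Of the 5 glutamatergic-like clusters, 2 had a glutamatergic marker among their 10 leading genes. Levels are given as CPM, the UMIs of a gene per 1000000 UMIs of the same cells. The oligodendrocyte precursor-like class held 40736 CPM of oligodendrocyte markers against 4276 CPM of precursor markers, and oligodendrocyte-like cells held 168693 CPM of oligodendrocyte markers. Its name therefore does not mark a pure class of precursors. The intervals are exact and cover counting error only.

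Epor, the receptor itself (chr9:21958897-21963506, mm10, minus strand, ENSMUSG00000006235.6), was near the limit of detection. Retained cells held 9 Epor UMIs, 1 in each of 9 cells, and the 4368 barcodes that were not retained held 1 more, or 0.561 CPM. Of these 9 cells, 6 were glutamatergic-like and 3 were mural-like. Free RNA in droplets can also give single UMIs, and its part was not tested.

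Among mural-like cells, 3 of 52 had an Epor UMI, or 5.77% (95% Clopper-Pearson interval 1.21% to 15.9%), at a pooled level of 33.1 CPM (Poisson interval 6.83 to 96.7). All 3 lay in the mural-like cluster of 30 cells led by Igf2, Vtn, Col1a2 and Kcnj8, and none of the 22 cells of the cluster led by the smooth muscle genes Myh11, Tagln and Acta2 had one. The leading genes of the first cluster include the pericyte genes Kcnj8 and Rgs5 and also Igf2, Col1a2 and Zic1, which are known from fibroblasts and the meninges. The 3 cells came from EPO mice 2, 4 and 6, 1 from each. They held 1245 to 1266 UMIs and 722 to 796 genes each, and each had UMIs of 4 or 5 of the 6 mural markers. Their Igf2 counts were 3, 0 and 1 UMIs in EPO mice 2, 4 and 6. None carried a shared barcode or a doublet call. None of them had more than 1000 genes, and none of the 11 mural-like cells above that number had an Epor UMI.

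Placebo and EPO mice gave 26 mural-like cells each. No placebo cell of this class had an Epor UMI, a count that leaves room for a UMI in 11.5% of such cells, and 3 EPO cells had one. With so few cells, a share in placebo mice like that of EPO mice could not be told from 0.

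In glutamatergic-like cells, 6 of 845 had an Epor UMI, or 0.71% (0.261% to 1.54%), at 1.11 CPM (Poisson interval 0.406 to 2.41). They fell in 3 clusters, with 3 cells in the cluster led by Nts and Slc17a6, 2 in the one led by Cpne7 and Slit1 and 1 in the one led by Spink8 and Hpca. These were deep cells: they held 2261 to 21328 UMIs with a median of 12947.5, against a class median of 3689. When each cell was thinned to 1000 UMIs, leaving out shallower cells, the share was 0.109% of 832 glutamatergic-like cells and 6.28% of 38 mural-like cells.

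No Epor UMI was found in the 735 cells of the other 6 classes, which allows up to 0.408% of such cells to have one, a limit on cells with a UMI and not on cells that express the gene, and a level of up to 1.27 CPM over these classes together. Class by class the limits were wider, from 1.30% of the astrocyte-like to 4.29% of the oligodendrocyte precursor-like cells, and stood at 3.30% for the endothelial-like cells that adjoin mural cells in the vessel wall. The glutamatergic-like level lay below the joint limit of these classes, so the neurons were not shown to hold more Epor than they did. The order of the classes for the 3 rarest genes is shown in the plot of pooled class levels.

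**Figure D1:**
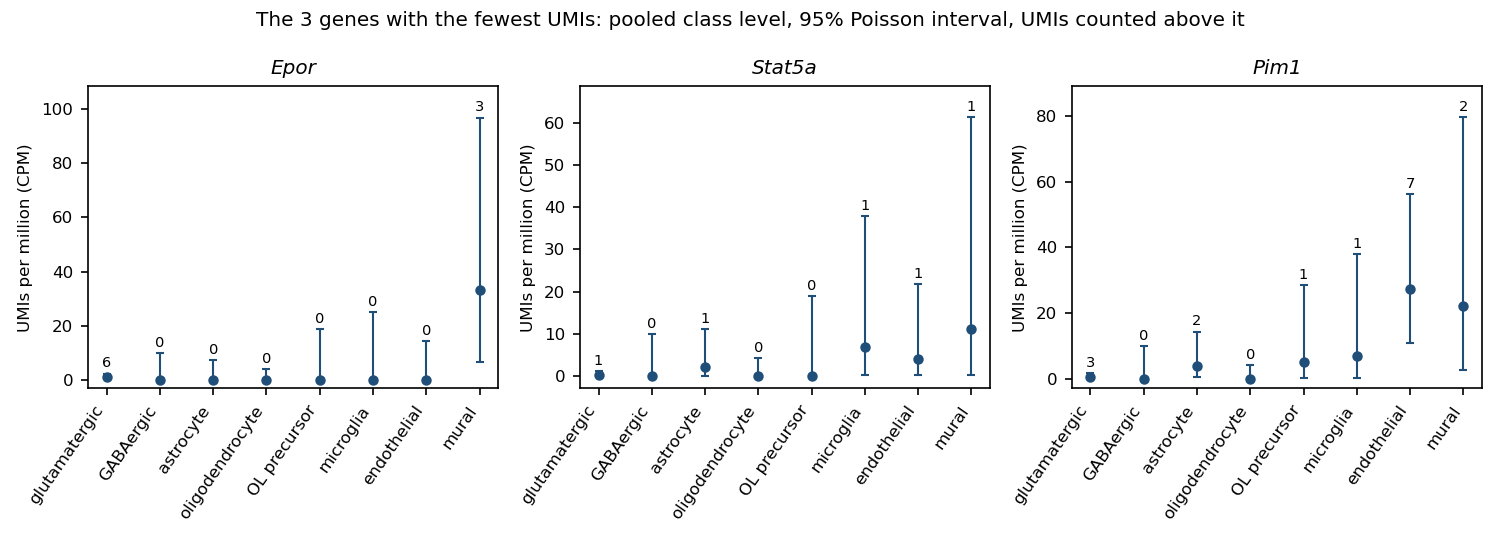
Pooled level of Epor, Stat5a and Pim1 in each cell class, in CPM on the y axis, with 95% Poisson intervals as bars and the number of UMIs above each. For Epor the mural-like class stands at 33.1 CPM from 3 UMIs, the glutamatergic-like class at 1.11 CPM from 6 UMIs, and the other 6 classes at 0 with upper bounds set by their depth.

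Of the 9 cells with an Epor UMI, 5 also had a Jak1 UMI, 3 a Bcl2l1 UMI and 2 a Socs2 UMI, genes seen in 37.4%, 10.8% and 7.60% of all retained cells. None had a UMI of Jak2, Stat3, Stat5a, Stat5b or Pim1, seen in 15.2%, 7.97%, 0.306%, 2.82% and 0.735% of all retained cells, and 9 cells are too few to tell these counts from those shares.

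Per mouse, Epor stood at 0, 0 and 0.674 CPM for placebo mice 1, 3 and 5 and at 2.67, 0.930 and 1.92 CPM for EPO mice 2, 4 and 6. Every EPO mouse was above every placebo mouse. The means were 0.225 ± 0.389 and 1.84 ± 0.872 CPM (SD, n = 3 each), and the 2-sided exact permutation test gave p = 0.1, the smallest that 3 against 3 mice allow. The background is that 4.04% of the 19731 genes with a UMI had every EPO mouse above every placebo mouse. The counts behind it were 1 UMI in 3039726 for placebo, or 0.329 CPM (0.00833 to 1.83), and 8 in 4836034 for EPO, or 1.65 CPM (0.714 to 3.26), with overlapping Poisson intervals. In placebo mouse 3 a count of 0 allows up to 11.2 CPM, above every value of the EPO mice. The difference was in the same direction within D1 (2.67 CPM) and within D2 (0.752 CPM) and remained without the shared barcodes (means 0.225 and 1.86 CPM). Within glutamatergic-like cells alone the groups overlapped (exact p = 0.2).

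Of the 9 genes, 6 reached the 20 UMIs over all class by mouse sums needed for the edgeR comparison of classes, which tested 12680 genes within mice against glutamatergic-like cells. Epor, Stat5a and Pim1 did not. Such a comparison calls many genes, so each count is set beside the share of all genes called in the same direction (edgeR quasi-likelihood test, Benjamini-Hochberg adjusted p under 0.05). In oligodendrocyte-like cells Stat3, Jak2 and Bcl2l1 were called higher, 3 of 6 where 14.9% of all genes were, and Jak1 and Socs2 lower, 2 of 6 where 30.2% were (45.1% in either direction). In endothelial-like cells Stat3, Stat5b and Bcl2l1 were called higher, 3 of 6 against 11.6%, and 1, Jak1, was lower against 29.5% (41.1% in either). In astrocyte-like cells Stat3 and Stat5b were called higher, 2 of 6 against 13.7%, and 1, Socs2, was lower against 25.3% (39.0% in either). Microglia-like cells had 1 gene called higher, Stat3, against 8.13%, and 1 lower, Socs2, against 26.6% (34.7% in either), and Stat5b, with an unadjusted p of 0.0496, was called with DESeq2 (2.91) and library totals (2.70). Oligodendrocyte precursor-like cells had 1 higher, again Stat3, against 6.47%, and 1 lower, Jak1, against 14.3% (20.8% in either). GABAergic-like cells had 0 higher against 3.34% and 1 lower, Jak1, against 5.91% (9.24% in either), where Stat3 and Stat5b had an unadjusted p of 0.0289 and 0.0172 and were called with DESeq2 (1.79 and 2.57). Mural-like cells had 0 higher against 5.47% and 0 lower against 16.3% (21.8% in either), with an unadjusted p of 0.0335 for Socs2 and 0.0355 for Stat3 and 1 call, Stat3, with DESeq2 (3.13) and with library totals (3.04). With edgeR's default filter on low counts Jak1 was the 1 gene of the set tested, and its calls in oligodendrocyte-like, endothelial-like and oligodendrocyte precursor-like cells were the ones made.

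Over all genes called, 23.4% to 36.1% were higher in the compared class, with library totals 31.6% to 58.9% and with DESeq2 45.9% to 68.3%. The median gene was also lower in each class than in glutamatergic-like cells, by a log2 fold change of -0.46 in oligodendrocyte-like, -0.47 in astrocyte-like, -0.90 in endothelial-like, -1.10 in microglia-like, -1.55 in mural-like, -0.63 in oligodendrocyte precursor-like and -0.32 in GABAergic-like cells. Scaling to library totals set these medians between -0.71 and -0.11, and DESeq2 between -0.20 and 0.22, so fold changes are read beside them.

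Jak1, the kinase paired with interferon and interleukin-6 type receptors (chr4:101152367-101265282, minus strand), was the most widely seen, with 1667 UMIs in 611 of 1632 cells. Pooled over mice it stood at 245 CPM in glutamatergic-like, 276 in mural-like and 231 in microglia-like cells and lowest, at 81.4, in oligodendrocyte-like cells. In oligodendrocyte-like cells the level was 46.0, 44.6 and 130 CPM for placebo mice 1, 3 and 5 and 39.9, 112 and 83.1 CPM for EPO mice 2, 4 and 6, against 200, 193, 313, 208, 220 and 268 CPM in glutamatergic-like cells of the same mice. The 2 sets did not overlap, and oligodendrocyte-like cells were lower in 6 of 6 mice. The mean difference was -158 ± 28.4 CPM (SD, n = 6 mice; exact sign-flip test, 2-sided, p = 0.03125, the smallest that 6 mice allow). Over the 12 such tests on these genes the Benjamini-Hochberg adjusted p was 0.0625 for each of those at 0.03125, so none of these exact tests passed 0.05 after adjustment.

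The fitted log2 fold change of Jak1 in oligodendrocyte-like cells was -1.51 ± 0.27 (SE; adjusted p = 2.07e-07, edgeR), or -1.05 relative to the median gene, and it was called under all 16 alternatives. The share of cells with a Jak1 UMI was 30.1% against 46.9%, and 8.23% against 15.8% after thinning to 1000 UMIs. In oligodendrocyte precursor-like cells Jak1 was also called lower, at -1.35 ± 0.41 (adjusted p = 0.00711, edgeR), a call lost with DESeq2 (-0.89) and with library totals (-0.78). The endothelial-like call of -1.04 ± 0.32 (adjusted p = 0.0036, edgeR) was -0.15 relative to the median gene of that comparison and was lost with DESeq2 (-0.49), with library totals (-0.43), and without placebo mouse 5 (-0.74) or EPO mouse 2 (-0.77). The GABAergic-like call of -0.92 ± 0.32 (adjusted p = 0.0497, edgeR) was lost in 8 of 15 alternatives, among them the removal of the copied barcodes from EPO mouse 4 and leaving out placebo mouse 3 or 5 or EPO mouse 2 or 4 (-0.77 to -1.06). Microglia-like and mural-like cells, by contrast, gave no call for Jak1, with a sign that turned under DESeq2 and library totals, although microglia-like cells were called lower against the narrower glutamatergic-like reference (-0.95), which kept the 2 clusters with a leading marker. Astrocyte-like cells were also called lower against that reference (-0.76, adjusted p = 0.0164, edgeR), and not otherwise.

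Glutamatergic-like cells differed among themselves in Jak1. The level was 332 CPM in the cluster led by Spink8 and Hpca, 278 in the one led by Nts and Slc17a6, 192 in the one led by Cpne7 and Slit1, 101 in the one led by Tshz3 and Rmst and 99.5 in the one led by Gm10115. In the 5 mice with at least 10 cells of both, the Spink8 and Hpca cluster ran from 295 to 354 CPM and the Tshz3 and Rmst cluster from 75.8 to 166 CPM, with no overlap. These 2 clusters also differed in quality measures: their median depth was 10887.5 and 2563 UMIs per cell and their median mitochondrial share 3.76% and 21.5%. What these measures contribute to the Jak1 levels was not tested. Jak2 ran the other way, from 31.2 CPM in the Spink8 and Hpca cluster to 51.5 CPM in the Tshz3 and Rmst cluster, with overlapping intervals. Socs2 was 54.5 CPM in the Tshz3 and Rmst cluster and 19.2 CPM in the Spink8 and Hpca cluster, and in the mice it did not keep that order throughout: in EPO mouse 6 the values were 19.9 and 28.1 CPM. Placebo mouse 5 stood apart in the Tshz3 and Rmst cluster, with 166 CPM of Socs2 against 15.1 CPM in placebo mouse 1 and 54.8, 30.3 and 19.9 CPM in EPO mice 2, 4 and 6. These cluster values are descriptions with no test.

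**Figure D2:**
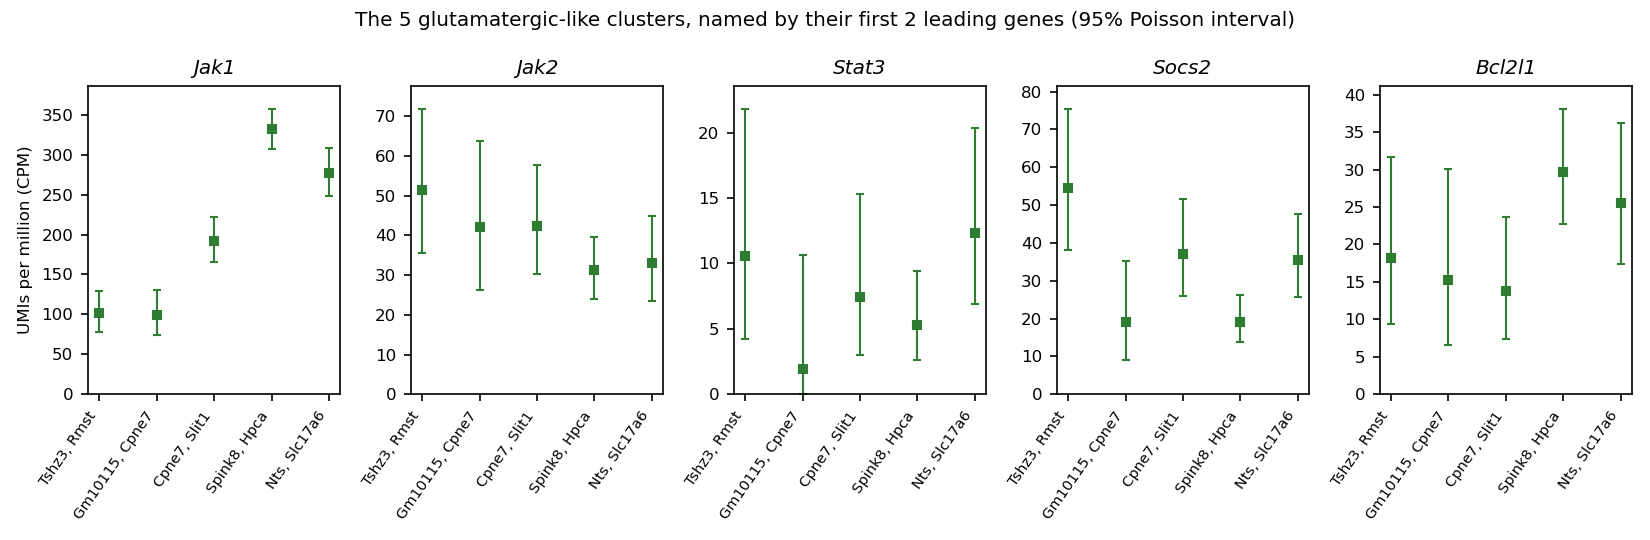
Level of 5 of the 9 genes in the 5 glutamatergic-like clusters, in CPM on the y axis, each cluster named by its first leading genes, with 95% Poisson intervals. Jak1 goes from 99.5 CPM in the cluster led by Gm10115 to 332 CPM in the one led by Spink8 and Hpca, while the Jak2 and Bcl2l1 intervals overlap across clusters.

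Within the mural-like class, Jak1 stood at 416 CPM in the cluster led by Igf2 and Vtn, the one that held the Epor UMIs, and at 79.5 CPM in the one led by Myh11 and Tagln. Jak2 stood at 56.7 and 0 CPM in the same clusters, from 3 UMIs and none.

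Jak2, the kinase that the EPO receptor carries (chr19:29251828-29313080, plus strand), had 334 UMIs in 248 cells. Its pooled level was highest in the oligodendrocyte lineage, at 87.3 CPM in precursor-like (17 UMIs, Poisson interval 50.8 to 140) and 73.5 CPM in oligodendrocyte-like cells. It was 50.7 CPM in endothelial-like (27.0 to 86.6), 37.7 in astrocyte-like, 37.1 in glutamatergic-like, 34.0 in microglia-like, 33.1 in mural-like and 29.4 in GABAergic-like cells. The precursor-like interval overlaps that of endothelial-like cells, among others. In oligodendrocyte-like cells the level was 69.1, 74.3 and 60.0 CPM in the placebo mice and 59.9, 65.8 and 135 CPM for EPO mice 2, 4 and 6. In glutamatergic-like cells of the same mice it was 35.6, 36.8, 41.7, 51.3, 31.3 and 31.3 CPM. The 2 ranges did not overlap, and EPO mouse 6 stood above the rest.

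The difference of 39.3 ± 33.4 CPM was positive in 6 of 6 mice (exact sign-flip p = 0.03125). The fitted log2 fold change was 0.98 ± 0.32 (adjusted p = 0.00678, edgeR). It was no longer called without EPO mouse 4 (0.85, adjusted p = 0.0595) or without EPO mouse 6 (0.65, adjusted p = 0.12). Precursor-like cells were not called (0.96 ± 0.51, adjusted p = 0.18, edgeR) but were with DESeq2 (1.38) and library totals (1.53). No other class was called for Jak2, and the sign in astrocyte-like and endothelial-like cells turned with DESeq2, with the narrower glutamatergic-like reference and when single mice were left out.

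Stat3, which carries signals of the interleukin-6 family and drives astrocyte reactivity (chr11:100885098-100939540, minus strand), was seen in 159 UMIs in 130 cells and had its lowest pooled level in glutamatergic-like cells. It stood at 7.56 CPM in glutamatergic-like cells, 24.1 in GABAergic-like, 39.6 in oligodendrocyte-like, 44.1 in mural-like, 47.6 in microglia-like, 56.5 in oligodendrocyte precursor-like, 67.5 in astrocyte-like and 70.1 CPM in endothelial-like cells. In oligodendrocyte-like cells it was 36.8, 14.9 and 80.0 CPM in the placebo mice and 49.9, 32.9 and 31.2 CPM in the EPO mice. In glutamatergic-like cells it was 7.91, 0 and 10.6 CPM in the placebo mice and 7.69, 4.87 and 8.25 CPM in the EPO mice. Each oligodendrocyte-like value exceeded all 6 glutamatergic-like values, and the difference was 34.4 ± 19.3 CPM (6 of 6 mice; exact sign-flip p = 0.03125).

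In astrocyte-like cells Stat3 stood at 76.8, 91.5 and 83.3 CPM for placebo mice 1, 3 and 5 and at 0, 51.2 and 102 CPM for EPO mice 2, 4 and 6. EPO mouse 2, with 35 such cells and no Stat3 UMI in them, was the exception to a higher level in 5 of 6 mice (exact sign-flip p = 0.0625).

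Fitted against glutamatergic-like cells, Stat3 was higher by a log2 fold change of 3.02 ± 0.45 in astrocyte-like (adjusted p = 1.86e-10), 2.63 ± 0.55 in endothelial-like (adjusted p = 1.39e-05), 2.45 ± 0.44 in oligodendrocyte-like (adjusted p = 1.80e-07) and 2.19 ± 0.74 in oligodendrocyte precursor-like cells (adjusted p = 0.0194; edgeR quasi-likelihood test throughout). These 4 calls were kept under every alternative that gave a value. For oligodendrocyte precursor-like cells, only 3 mice had at least 10 cells, and leaving out any of these gave no value. Whether that call depends on 1 of these mice was therefore not tested. The microglia-like call of 2.02 ± 0.77 (adjusted p = 0.0275, edgeR) was lost in 4 of 14: without called doublets (1.78), without all shared barcodes (1.92), without placebo mouse 1 (1.41) and without EPO mouse 4 (1.81). The last 72 bases of Stat3 overlap the end of Stat5a on the other strand (chr11:100885098-100885169). Whether counting used strand is not given in the sources used here, so UMIs there could be split wrongly.

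Stat5a and Stat5b encode the STATs most closely tied to the EPO receptor and lie side by side on chromosome 11. Stat5a (chr11:100859351-100885169, plus strand) had 5 UMIs in 5 cells, 1 each in astrocyte-like, endothelial-like, glutamatergic-like, microglia-like and mural-like cells. Stat5b (chr11:100780731-100850724, minus strand) had 55 UMIs in 46 cells. The genes are near copies: 608 windows of 50 bases in their transcripts are identical, 8.21% of those of Stat5a and 10.98% of those of Stat5b, and reads in these could not be assigned to 1 of them.

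Stat5b stood at 3.13 CPM in glutamatergic-like and 4.52 CPM in oligodendrocyte-like cells and between 16.0 and 27.3 CPM in the other 6 classes. Of these, the mural-like value of 22.1 CPM came from 2 UMIs, and Stat5b was at 0 in the 3 mice with at least 10 mural-like cells. In astrocyte-like cells it was 9.60, 0 and 11.9 CPM in the placebo mice and 78.7, 30.7 and 0 CPM for EPO mice 2, 4 and 6. EPO mouse 2 held 6 of the 11 UMIs. The fitted log2 fold change was 2.401 ± 0.70 (adjusted p = 0.0025, edgeR), and without EPO mouse 2 it was 1.94 and no longer called (adjusted p = 0.0966). The endothelial-like call of 2.13 ± 0.81 (adjusted p = 0.0234, edgeR) rested on 7 UMIs and was lost without EPO mouse 2 (1.78) or EPO mouse 4 (2.01).

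Socs2, a feedback inhibitor best known for curbing growth hormone receptor signalling through STAT5 (chr10:95385362-95417180, minus strand), had the sharpest division between classes. It had 194 UMIs in 124 cells, of which 164 UMIs were in glutamatergic-like, 20 in endothelial-like and 8 in GABAergic-like cells, and 2 in all other classes together. In endothelial-like cells it stood at 31.5 and 115 CPM for placebo mice 1 and 5 and at 68.0, 87.9 and 147 CPM for EPO mice 2, 4 and 6, each mouse above its own glutamatergic-like value. Those were 11.9, 36.8 and 48.8 CPM for placebo mice 1, 3 and 5 and 23.1, 22.3 and 37.9 CPM in the EPO mice. Placebo mouse 3 had fewer than 10 endothelial-like cells and no value for them.

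The oligodendrocyte-like class had no Socs2 UMI in 163 cells of all 6 mice, although these were among the deepest cells, with a median of 4428 UMIs. A count of 0 allows up to 1.84% of cells with a UMI and 3.39 CPM, a limit that is 8.92-fold below the pooled 30.2 CPM of glutamatergic-like cells. That ratio takes the pooled level as exact, although its Poisson interval was 25.8 to 35.2 CPM. The exact upper bound of oligodendrocyte-like cells was 4.17 CPM. Microglia-like cells also had none in 98 cells, and their limit of 20.4 CPM is 1.48-fold below that pooled level. This margin is narrow, as placebo mouse 5, with the highest glutamatergic-like value (48.8 CPM), had 0 microglia-like cells. The exact upper bound of microglia-like cells, 25.1 CPM, also lies close to the lower bound of glutamatergic-like cells, 25.8 CPM. The 52 mural-like cells had none, but their limit of 33.1 CPM lies above the neuronal level and allows no statement. Astrocyte-like cells had 1 UMI in 231 cells, or 1.99 CPM, below their glutamatergic-like partner in 6 of 6 mice (exact sign-flip p = 0.03125), with a fitted log2 fold change of -3.59 ± 0.91 (adjusted p = 0.00038, edgeR). Among cells with more than 1000 genes this was -2.34 and no longer called (adjusted p = 0.127).

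The oligodendrocyte-like call (adjusted p = 5.02e-07, edgeR) was kept under all 15 alternatives. The microglia-like call (adjusted p = 0.00827, edgeR) was lost with DESeq2, with library totals and with a narrower glutamatergic-like reference. Endothelial-like cells were higher by 1.01 ± 0.48, which did not pass (adjusted p = 0.0797, edgeR), but did with DESeq2 (1.62), with library totals (1.61) and with that reference (1.59).

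Bcl2l1, which encodes the survival protein BCL-XL (chr2:152780668-152831728, minus strand), had 229 UMIs in 176 cells. It was highest in endothelial-like cells at 81.8 CPM and in oligodendrocyte-like cells at 53.1 CPM, was 13.6 to 32.1 CPM in the other classes, and stood at 23.2 CPM in glutamatergic-like cells. In oligodendrocyte-like cells it was 41.4, 59.4 and 40.0 CPM in the placebo mice and 110, 42.8 and 62.3 CPM for EPO mice 2, 4 and 6, against 23.7, 9.20, 23.9, 19.2, 18.1 and 32.2 CPM in glutamatergic-like cells. The ranges did not overlap, and EPO mouse 2 stood above the others. The difference was 38.2 ± 28.5 CPM (6 of 6 mice; exact sign-flip p = 0.03125), with a fitted log2 fold change of 1.37 ± 0.36 (adjusted p = 0.00063, edgeR) that was called under all 15 alternatives. In endothelial-like cells the call of 1.14 ± 0.48 (adjusted p = 0.0452, edgeR) was lost in 7 of 14 alternatives, 4 of which left out placebo mouse 1 or 5 or EPO mouse 2 or 6 (0.95 to 1.26). EPO mouse 4 had no Bcl2l1 UMI in 21 such cells and EPO mouse 6 had 184 CPM in 15.

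Pim1, a kinase gene that STAT5 induces in blood cells (chr17:29490753-29496112, plus strand), had 16 UMIs in 12 cells, of which 7 UMIs were in 4 endothelial-like cells. That was 27.3 CPM, against 22.1 CPM in mural-like cells from 2 UMIs of 1 cell and 0.553 CPM in glutamatergic-like cells from 3 UMIs. In endothelial-like cells it stood at 15.7 and 28.6 CPM for placebo mice 1 and 5 and at 0, 35.2 and 110 CPM for EPO mice 2, 4 and 6. No UMI was found in oligodendrocyte-like or GABAergic-like cells.

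**Figure D3:**
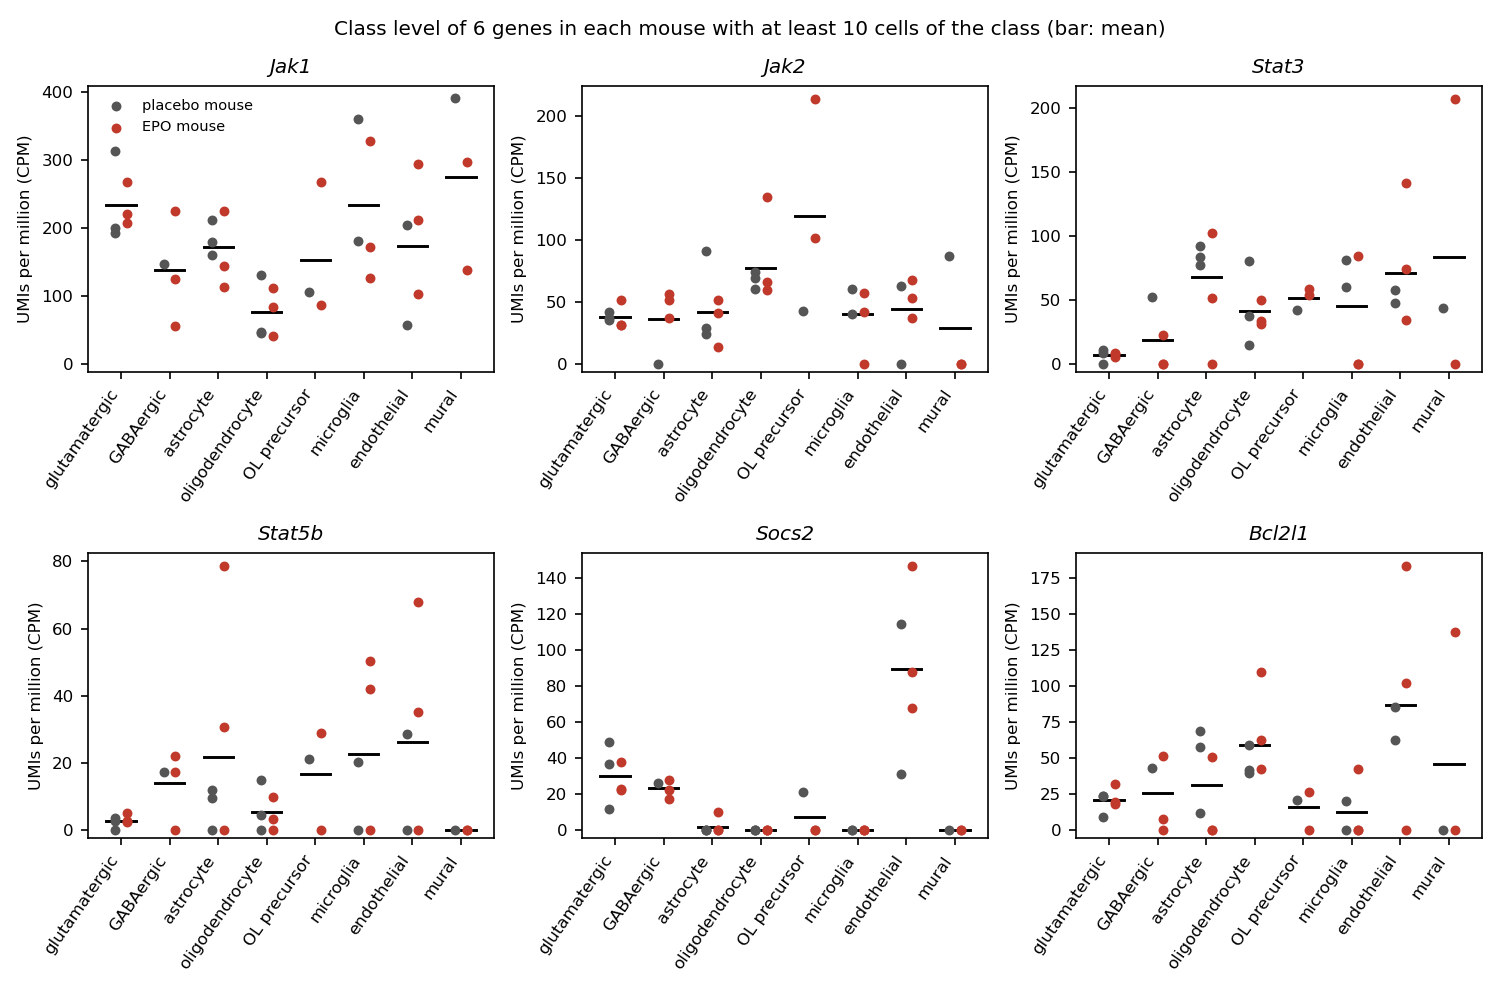
Level of 6 of the 9 genes in each cell class, in CPM on the y axis, with 1 point for each mouse that had at least 10 cells of the class (grey placebo, red EPO) and the mean as a bar. Socs2 is at 0 in oligodendrocyte-like cells of all 6 mice and between 11.9 and 48.8 CPM in glutamatergic-like cells, while Jak2 and Bcl2l1 are higher in oligodendrocyte-like cells.

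The means of neighbouring classes, taken over mice, did not separate for any of the 9 genes: in each ordering the range of each class overlapped that of the next. Of Jak1, for example, the mean was 276 ± 128 CPM in mural-like (n = 3), 234 ± 47.1 in glutamatergic-like (n = 6) and 234 ± 104 in microglia-like cells (n = 5).

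Endothelial-like cells, the class highest for Socs2, Bcl2l1 and Pim1, also held most red cell RNA. The 5 blood cell genes Hba-a1, Hba-a2, Hbb-bs, Hbb-bt and Alas2 were all called higher there and summed to 47061 CPM, against 205 to 1191 CPM in the other classes. Of the 91 cells, 18 had more than 10 UMIs of these genes and held 12045 of their UMIs, while the other 73 cells held 32. In those 73 cells Socs2 stood at 92.6 CPM (53.9 to 148), Bcl2l1 at 98.1 CPM (58.1 to 155) and Pim1 at 38.1 CPM (15.3 to 78.6). In the 18 cells with more blood RNA the same genes stood at 41.1 (8.47 to 120), 41.1 (8.47 to 120) and 0 CPM (0 to 50.5). These came from 3, 3 and 0 UMIs, and the intervals overlap those of the 73 cells, so the sets cannot be told apart. The high levels were present in the cells with few blood UMIs, in a split that was made after seeing the data. The part of blood RNA in them was not tested.

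Further genes were followed in 7 lists with 106 entries, of which 102 had a row and 83 were tested between classes. The list of 5 blood cell genes is among them, although these are not pathway genes, and the counts and medians below include it. It gave 5 of the higher calls in endothelial-like cells. In GABAergic-like cells it gave 2 of the lower calls, and in each of the remaining classes 4. The list genes called higher and lower were 11 and 24 in oligodendrocyte-like cells, where 14.9% and 30.2% of all genes were. In astrocyte-like cells they were 12 and 26 (13.7% and 25.3% of all genes) and in endothelial-like cells 32 and 16 (11.6% and 29.5%). In microglia-like cells they were 16 and 16 (8.13% and 26.6%) and in mural-like cells 9 and 15 (5.47% and 16.3%). Oligodendrocyte precursor-like cells had 5 and 16 (6.47% and 14.3%) and GABAergic-like cells 1 and 10 (3.34% and 5.91%). The median log2 fold change of the tested list genes was -0.46 in oligodendrocyte-like cells, where all genes had -0.46, and 0.03 in endothelial-like cells, where all genes had -0.90. Of the 14 tested genes of the list of other JAK-coupled receptors, 9 were called higher and 2 lower in endothelial-like cells, where 11.6% and 29.5% of all genes were. In microglia-like cells it was 7 higher and 0 lower (8.13% and 26.6% of all genes), in astrocyte-like cells 5 and 2, and in mural-like cells 2 and 1.

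By name, in oligodendrocyte-like cells the adaptor gene Gab1 was higher by 6.13 ± 0.42 on the log2 scale (136 against 1.47 CPM), the ERK1 gene Mapk3 by 3.82 ± 0.32 (170 against 12.5 CPM) and the Pim1 relative Pim3 by 3.03 ± 0.34 (98.3 against 13.1 CPM), while the cyclin gene Ccnd1 fell by 4.11. In astrocyte-like cells Gfap, a STAT3 target and the filament protein of astrocytes, was higher by 6.24 ± 0.39, the growth hormone receptor gene Ghr by 4.01 ± 0.54 and Id1 by 4.16 ± 0.57. Gfap was also among the markers that named this class, so its call, counted among the list genes above, was largely set in advance. In microglia-like cells the interleukin-6 receptor gene Il6ra was higher by 5.94 ± 0.42 (639 against 5.53 CPM) and Ifngr1, a subunit of the interferon gamma receptor, by 5.57 ± 0.42. In mural-like cells Gab1 was higher by 4.94 ± 0.89 and Il34, a ligand of the microglial CSF1 receptor, by 2.49 ± 0.64 (221 against 20.8 CPM). In GABAergic-like cells the growth factor gene Igf1 was the list gene called higher, by 7.93 ± 0.56 (243 against 0.553 CPM). All passed the edgeR quasi-likelihood test, with adjusted p of 0.00113 or less, and Igf1 did not pass with DESeq2.

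For the 5 genes with at least 100 UMIs, the genes of most similar level over 38 class by mouse sums were found among 8841 genes by Pearson correlation of log2(CPM + 10). These points share mice, classes and depth, and the values are descriptions. Socs2 had the closest partners, Mcf2l (r = 0.90), Jag2 (0.87) and Tiam1 (0.85). For Jak1 they were Capzb (0.72), Idh3g (0.67) and Zfp148 (0.65), and for Jak2 Arhgdia (0.70), the myelin gene Mbp (0.64) and Ralgds (0.62). For Stat3 they were Acadm (0.73), Mrps24 (0.72) and Atp6v0e (0.65), and for Bcl2l1 Sfr1 (0.65), Alkbh5 (0.64) and Inpp5a (0.63).

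No gene of the set was called between EPO and placebo mice. Over all retained cells 5 of the 9 passed the filter on low counts, and 0 of 10551 genes (0%) were called by the edgeR quasi-likelihood test, with 138 at an unadjusted p under 0.05. DESeq2 called 1 gene, Rarres2, which is outside the set. In glutamatergic-like cells 0 of 8792 genes (0%) were called (156 unadjusted), in oligodendrocyte-like cells 0 of 1687 (29 unadjusted) and in astrocyte-like cells 0 of 1439 (52 unadjusted), and DESeq2 called 0 in each of these.

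The kinases did not separate the groups. Jak1 stood at 173, 153 and 270 CPM for placebo mice 1, 3 and 5 and at 182, 189 and 250 CPM for EPO mice 2, 4 and 6 (log2 fold change -0.00 ± 0.23, adjusted p = 0.9997, edgeR), and placebo mouse 5 and EPO mouse 6 were the high mouse of their groups. The share of UMIs in the Spink8 and Hpca cluster, where Jak1 was highest, was 44.1% and 34.1% in these mice and 17.6% to 19.5% in the other 4. Its part in the Jak1 levels was not tested. Jak2 stood at 43.4, 59.9 and 37.1 CPM against 47.1, 40.0 and 43.6 CPM (log2 fold change -0.08 ± 0.26, adjusted p = 0.9997, edgeR), with overlapping groups. The Jak2 means were 46.8 and 43.6 CPM, and without all shared barcodes 43.3 and 43.1 CPM.

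Stat3 was the gene whose groups did not overlap in the lower direction. It stood at 24.8, 26.2 and 24.9 CPM for placebo mice and at 12.5, 18.1 and 19.2 CPM for EPO mice, or 25.3 ± 0.760 against 16.6 ± 3.63 CPM (SD, n = 3 each; exact permutation p = 0.1, the smallest possible). Of all genes, 1.85% had every EPO mouse below every placebo mouse. The fitted log2 fold change was -0.63 ± 0.29 (unadjusted p = 0.0546, adjusted p = 0.9997, edgeR), between -0.72 and -0.50 without 1 of the mice, and the difference was -13.1 CPM within D1 and -6.27 CPM within D2. Without all shared barcodes the means were 26.5 and 16.9 CPM. The Poisson intervals of single mice overlapped across the groups.

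The 6 non-neuronal classes, where Stat3 was higher, gave 39.2%, 58.4% and 16.1% of UMIs in placebo mice 1, 3 and 5 and 27.5%, 26.9% and 18.6% in EPO mice 2, 4 and 6. Within these classes Stat3 was 58.6 ± 18.3 against 48.3 ± 21.5 CPM and the groups overlapped (exact p = 0.5), and within glutamatergic-like cells it was 6.18 ± 5.53 against 6.94 ± 1.81 CPM (exact p = 0.9). A change in the mix of cells and a change of RNA per cell cannot be told apart in the sum over all cells.

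Stat5a had 1 UMI in placebo and 4 in EPO mice, all 4 in EPO mouse 6. Stat5b stood at 4.65, 3.74 and 6.07 CPM against 16.9, 7.44 and 2.56 CPM, with EPO mouse 2 the highest and EPO mouse 6 the lowest of all mice (exact p = 0.5).

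Socs2 stood at 9.31, 18.7 and 41.8 CPM for placebo mice and at 20.5, 19.1 and 32.7 CPM for EPO mice, and the placebo mice spanned the EPO mice on both sides (23.3 ± 16.7 against 24.1 ± 7.49 CPM, exact p = 0.8). The fitted log2 fold change of -0.07 ± 0.46 became 0.94 without placebo mouse 5, with no call (adjusted p = 0.541, edgeR). Bcl2l1 stood at 32.6, 48.6 and 27.0 CPM against 28.5, 19.1 and 39.1 CPM, with overlapping groups (log2 fold change -0.29 ± 0.33, adjusted p = 0.9997, edgeR). The value was -0.07 to -0.50 without 1 of the mice. The Bcl2l1 means were 36.1 and 28.9 CPM (exact permutation p = 0.5), and without all shared barcodes 40.1 and 29.2 CPM (exact permutation p = 0.3). Pim1 stood at 2.33, 0 and 0.674 CPM against 1.78, 2.79 and 2.56 CPM (exact p = 0.2). Within the 6 non-neuronal classes Pim1 did not overlap, at 2.71 ± 2.35 against 8.48 ± 1.93 CPM from 3 and 10 UMIs (exact p = 0.1, the smallest possible), and 3.26% of the 16831 genes with a UMI in these classes were higher in every EPO mouse.

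**Figure D4:**
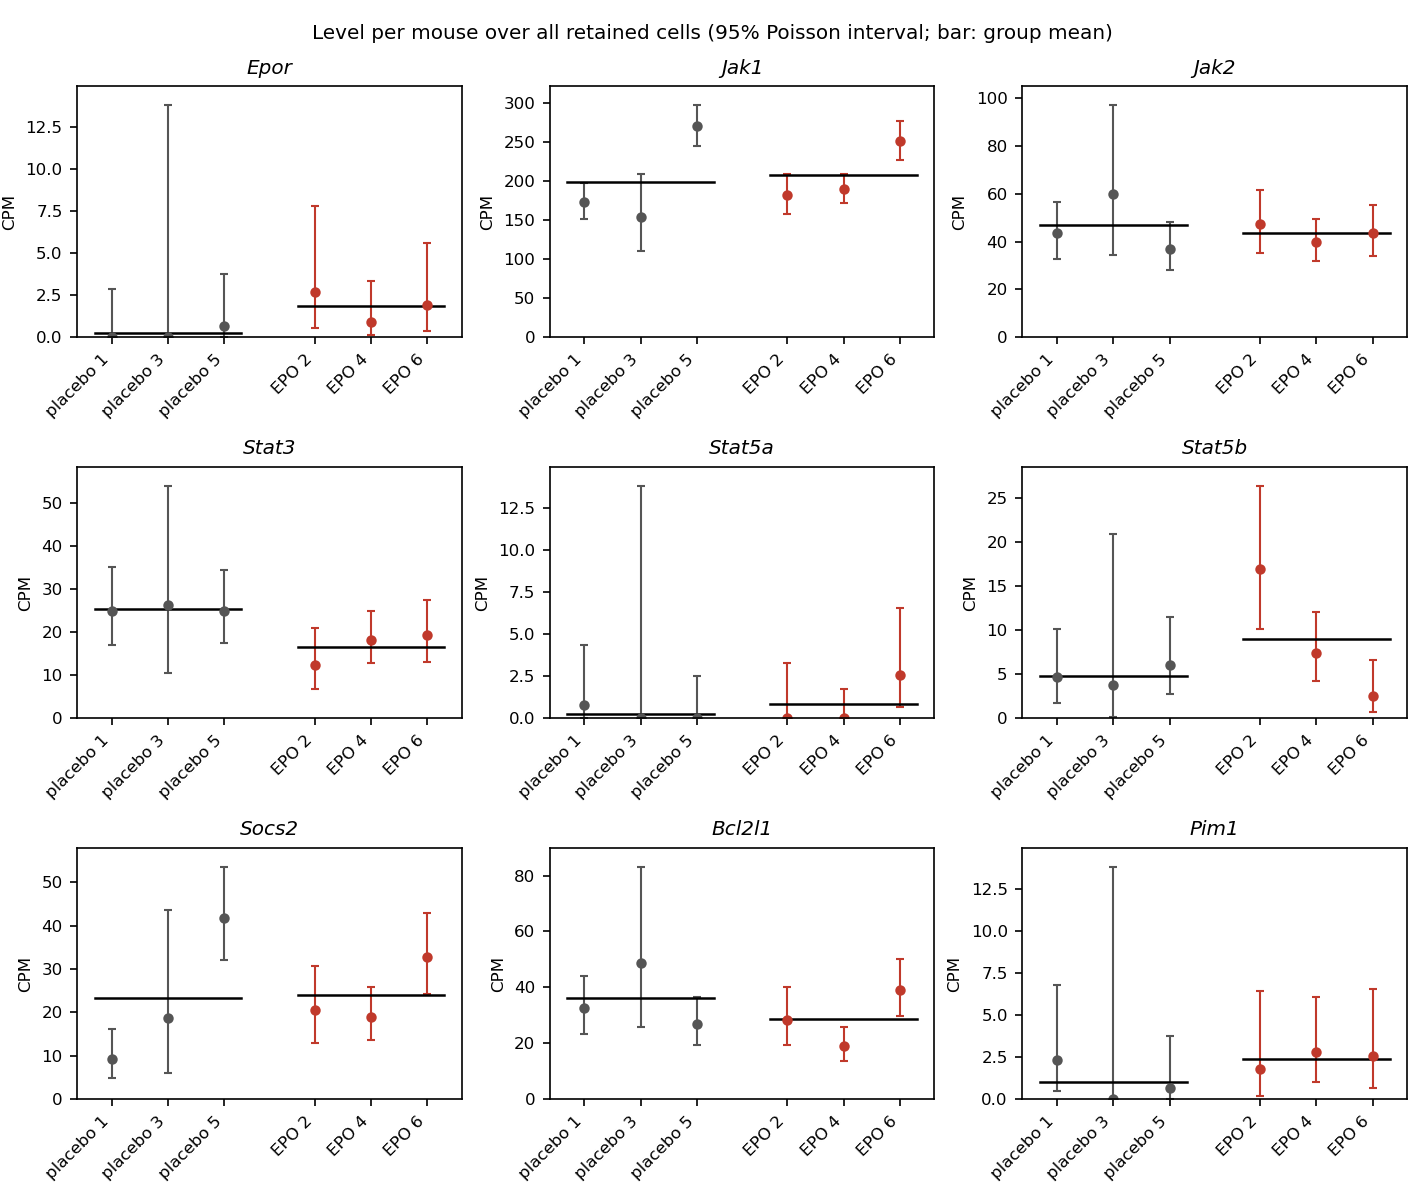
Level of each of the 9 genes per mouse over all retained cells, in CPM on the y axis, with 95% Poisson intervals, placebo mice in grey, EPO mice in red and group means as bars. Epor is higher and Stat3 lower in every EPO mouse than in every placebo mouse, and the other 7 genes overlap.

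Within classes no gene of the set was called either. In glutamatergic-like cells the log2 fold changes of the 4 tested genes ran from -0.26 ± 0.40 for Socs2 to -0.01 ± 0.35 for Bcl2l1. In oligodendrocyte-like cells none of the 9 passed the filter, and the exact permutation test gave p of 0.2 or more for each. The EPO effect in oligodendrocyte-like cells, set against that in glutamatergic-like cells, was called for 1 of 6578 genes (0.0152%), which was Hbb-bt and none of the set. In astrocyte-like cells the same test called 0 of 3327.

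The pathway lists and the blood cell list gave no call either. Over all retained cells 74 of the list genes were tested and 0 were called higher or lower, with a median log2 fold change of -0.05 against -0.01 for all genes. In glutamatergic-like cells it was 0 of 54 genes with a median of 0.03 against 0.00. The list gene with the smallest p was Alas2, the first enzyme of red cell haem synthesis, over all cells (-1.71 ± 0.68, adjusted p = 0.9997, edgeR) and the haemoglobin gene Hba-a1 in glutamatergic-like cells (-6.04 ± 1.33, adjusted p = 0.9999, edgeR). The sum of the 5 blood cell genes itself varied between mice, at 6219, 3641 and 1687 CPM in placebo and 4275, 865 and 633 CPM for EPO mice, with overlap.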

How the data were processed

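The deposited values are UMI counts per gene and barcode, made by the authors from Drop-seq reads of 6 mice and not normalized. Per the submitters' processing notes, bcl2fastq 2.15, STAR 2.4.0 and the build mm10 were used, and the settings of the counter, its use of strand among them, are not given in the sources used here. Missing values were read as 0. Barcodes were retained if they had over 500 and up to 8000 detected genes and a mitochondrial share of 40% or less, which gave 267231 to 2150763 UMIs per mouse. Gene positions are from GENCODE vM21 on mm10.

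Cells were clustered in Seurat 5.3.0 with anchors between treatments, 20 dimensions and resolution 1, and clusters were named from marker lists. Doublets were called with Scrublet and kept. UMI counts were summed per mouse, or per class and mouse with at least 10 cells, and tested with edgeR 4.0.16 (quasi-likelihood test, TMM scaling, Benjamini-Hochberg adjustment, threshold 0.05), with the mouse as a block between classes. The class comparison kept genes with at least 20 UMIs over all sums. This filter was set after seeing that edgeR's default filter left 1 of the 9 genes. Single values were compared with exact permutation tests between 3 and 3 mice and exact sign-flip tests over mice, both 2-sided. P-values measure the spread between these mice. Intervals are at 95%, and the limit that a count of 0 allows is 3 counts. The steps were tested on simulated data.

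The 9 genes and the pathway lists were chosen with earlier results of these data known. All 9 genes are named throughout. From the lists, at most 5 genes per direction and comparison with the smallest adjusted p were named, or the gene with the smallest p where none passed. For genes with at least 100 UMIs, the 3 most correlated genes were named. Alternatives used DESeq2 1.42.0, limma 3.58.1, library totals, other filters and clusters, thinned cells, a D number term, and removal of doublets, shared barcodes or single mice. No row for Epo itself was in the table.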

Additional observations from a re-analysis of the deposited data

Results flagged for a closer look

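Jak2 in oligodendrocyte-like cells was 135 CPM in EPO mouse 6, far from the next mouse at 74.3 CPM. Bcl2l1 in oligodendrocyte-like cells was 110 CPM in EPO mouse 2, far from the next mouse at 62.3 CPM. These were 2 of 14 sets of mice examined for a value that stands apart, a check that marks about 1 set in 20 by chance.

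The EPO effect on the haemoglobin gene Hbb-bt differed between oligodendrocyte-like and glutamatergic-like cells by 3.87 on the log2 scale (adjusted p = 0.041, edgeR quasi-likelihood test), and was 1.64 with no call without EPO mouse 4. Leaving out placebo mouse 3 or 5 or EPO mouse 2 or 6 gave 3.87 to 4.50, each called, and library totals gave 3.85 with no call.

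Barcodes that were not retained as cells also held UMIs of the set, above the limit that a count of 0 allows. There were 217 of Jak1, 63 of Jak2, 55 of Stat3, 4 of Stat5a, 7 of Stat5b, 47 of Socs2 and 47 of Bcl2l1. Relative to all UMIs of those barcodes, Stat3 stood at 30.8 CPM against 20.2 CPM in retained cells, and Jak1 at 122 against 212 CPM.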

How the results depend on the processing

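EPO and placebo mice could not be paired because the mouse numbers of the groups are all different, while the class comparisons were made within mice. Of the values of single genes under the alternatives, 1587 kept their direction and side of the threshold, 71 lost a call, 16 gained one and 57 changed sign. The cause was not tested unless the alternative itself tests fewer genes or mice.

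Between EPO and placebo mice, DESeq2 called 1 gene over all cells and the fit with the D number 1 in astrocyte-like cells, while without a filter on low counts 21 genes were called over all cells, 12 in glutamatergic-like, 1 in oligodendrocyte-like and 53 in astrocyte-like cells. Leaving out 1 mouse gave 0 to 6 calls in glutamatergic-like cells (6 without placebo mouse 5) and 0 to 0 in the other 3 sets. Jak1 over all cells turned positive with library totals (0.0424), no filter (0.0189), over 1000 genes (0.0148), no doublets (0.0104) and limma (0.0415), Jak2 with the D number (0.0617) and Socs2 with limma (0.19). Bcl2l1 in glutamatergic-like cells turned positive with DESeq2 (0.0194), library totals (0.0539), no filter (0.00789) and without the copied barcodes (0.0209). Leaving out 1 mouse moved Jak1 from -0.13 to 0.24, Jak2 from -0.26 to 0.0706 and Socs2 from -0.51 to 0.94 over all cells, and in glutamatergic-like cells Jak1 from -0.22 to 0.10, Jak2 from -0.40 to 0.10, Socs2 from -0.74 to 0.66, Bcl2l1 from -0.24 to 0.14 and Hba-a1 from -6.65 to 0.96. Those values rest on 1 mouse in their sign.

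The EPO effect set against that in glutamatergic-like cells gave 0 calls in oligodendrocyte-like cells with library totals, 0 to 13 without 1 mouse (13 without placebo mouse 5) and 0 to 2 in astrocyte-like cells. Leaving out 1 mouse moved Jak1 from -0.27 to 0.82, Jak2 from -0.0281 to 0.84 and Stat3 from -0.53 to 0.0262 in oligodendrocyte-like cells, and Jak1 from -0.48 to 0.27 in astrocyte-like cells.

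Between classes, edgeR's default filter, which tests 1 of the 9 genes, called 0 in astrocyte-like, 1 in endothelial-like, 0 in GABAergic-like, 0 in microglia-like, 1 in oligodendrocyte-like and 1 in oligodendrocyte precursor-like cells. In GABAergic-like cells DESeq2 called 2 of the genes, library totals 0 and the fit without the copied barcodes 0. In microglia-like cells 1 was called without doublets and 1 without all shared barcodes, and in mural-like cells 1 with DESeq2 and 1 with library totals. Leaving out 1 mouse gave 2 to 3 calls in astrocyte-like, 1 to 4 in endothelial-like, 0 to 1 in GABAergic-like, 1 to 2 in microglia-like and 4 to 5 in oligodendrocyte-like cells. Some fits lost mural-like or precursor-like cells, as under 3 mice were left, and with over 1000 genes the class fit gave values for astrocyte-like and oligodendrocyte-like cells.

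Signs turned for Jak2 in astrocyte-like cells with DESeq2 (0.30), over 1000 genes (0.0298) and the narrower glutamatergic-like reference (0.17), and in endothelial-like cells with DESeq2 (0.32), library totals (0.40) and that reference (0.22). They turned for Bcl2l1 with that reference in astrocyte-like (-0.0121) and GABAergic-like cells (-0.12), where removing all shared barcodes gave -0.0107. Jak1 turned in microglia-like cells with DESeq2 (0.0316) and library totals (0.10) and in mural-like cells (0.31 and 0.33), where Bcl2l1 (0.48 and 0.51) and, with DESeq2, Stat5b (1.95) turned too. Hba-a2 turned in microglia-like cells with clusters made without integration (1.44) and the narrower reference (0.67), and in precursor-like cells with those clusters (0.40). Leaving out 1 mouse moved Jak2 from -0.32 to 0.35 in astrocyte-like, -0.35 to 0.16 in endothelial-like and -0.86 to 0.19 in GABAergic-like cells, and Bcl2l1 from -0.0835 to 0.64 in astrocyte-like and -0.32 to 0.39 in GABAergic-like cells.

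The share of oligodendrocyte-like cells with a Jak1 UMI divided by the glutamatergic-like share was 0.487 in cells thinned to 500 UMIs, against 0.641 unthinned. For Bcl2l1 it was 3.46 at 1000 UMIs and 3.23 at 500 UMIs, against 1.95 unthinned. Depth limits Epor, Stat5a and Pim1, with 5 to 16 UMIs each, to intervals and limits.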

Other observations

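Socs3, a feedback inhibitor that STAT3 induces, had 8 UMIs in retained cells, in 7 cells, and all came from EPO mice. The counts were 0, 0 and 0 UMIs in placebo mice 1, 3 and 5 and 2, 3 and 3 UMIs in EPO mice 2, 4 and 6. Of these, 5 were in glutamatergic-like and 3 in endothelial-like cells. Every EPO mouse was above every placebo mouse, as were 4.04% of all genes, and the gene was picked from the lists after its values were seen. Cish, the SOCS gene named for its induction by EPO and other cytokines, had 5, 0 and 2 UMIs in placebo and 2, 2 and 4 in EPO mice.

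Csf2rb, the shared cytokine receptor chain that has been proposed to pair with the EPO receptor in tissue, had 2, 0 and 0 UMIs in placebo and 5, 4 and 0 UMIs in EPO mice, and was also named after its values were seen.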
